A study of Homo sapiens with 6 samples.

Results

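The USP, OTU and UCH deubiquitinases were followed in an RNA immunoprecipitation sequencing (RIP-seq) experiment in 786-O, a cell line derived from a human clear cell renal carcinoma. Members were chosen by gene symbol: every row named USP, OTUD, OTUB or UCHL with a number, except *USP9X* and *USP15*, which were left out by the rule. This matched 61 symbols, and the 56 of them with at least 20 reads summed over the 6 libraries, of 20020 genes in the table, are the members described here. They comprise 44 USP, 9 OTU and 3 UCH genes. The 5 symbols under the minimum were *USP26* and *USP29*, with no read, *OTUD6A*, *USP50* and *USP44*, the last with 18 reads. In 3 libraries the RNA had been pulled down together with IGF2BP2, a protein that binds mRNA in the cytoplasm (RIP), and the other 3 were input RNA of the same line (Input). All 6 libraries came from the same line, and the labels give no genotype, treatment or time that differs between the groups.

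Deubiquitinases are proteases that remove ubiquitin from proteins, and so oppose the ligases that attach it. The USP family is the largest and, like the OTU and UCH families, uses a catalytic cysteine. Its members act on histones, DNA repair factors, receptors in transit through endosomes, the proteasome and organelle surfaces, and several act on TGF-beta receptors or SMAD proteins, the signalling axis named in the series title. The comparison asked which of their mRNAs were over- or under-represented in the IGF2BP2 fraction relative to Input. No control immunoprecipitation was analysed here, and enriched therefore means above Input, not above nonspecific binding.

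The libraries held 25773819 to 44045835 counted reads, and the members' share of them was 0.240% to 0.243% in the RIP libraries and 0.279% to 0.294% in Input. All 11 markers listed for renal carcinoma and tubule cells were detected, among them *PAX8* at 416 CPM (counts scaled to a common library size) in Input, although *CA9* reached only 7.66 CPM. None of the 6 endothelial and 5 fibroblast markers reached 5 CPM in any library, and of 7 immune and blood markers only *CD68* did. The summed immune markers lay at 117 to 125 CPM in RIP and 43.1 to 45.5 in Input, nearly all from *CD68*, and their part in the results was not tested. The labels do not say that replicates came from separate cultures, and the p-values cover only the variation among these 6 libraries, possibly technical. The libraries are of bulk RNA, so a transcript in fewer cells and less of it per cell cannot be told apart.

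Most deubiquitinase mRNAs were under-represented in the IGF2BP2 fraction, while a smaller set was over-represented. All 56 members passed the filter on low counts and were tested with the edgeR quasi-likelihood test over 12856 genes, with adjustment over all of them. At an adjusted p under 0.05, 18 were enriched, 31 were depleted and 7 were not called. The enriched share was 32.1%, against a background of 40.7% of all genes tested, and the depleted share 55.4% against 42.0%. In total 87.5% of members were called, close to the 82.7% of all genes. Their median log2 fold change was -0.28 and that of all genes tested -0.024. The quartiles of the members were -0.71 and 0.30, and those of all genes -0.79 and 0.68. A change of at least 2-fold was called for 5 enriched members, *USP3*, *USP31*, *USP6*, *OTUB2* and *USP8* (background 15.1%) and 8 depleted ones, *UCHL1*, *UCHL3*, *UCHL5*, *USP4*, *USP19*, *USP20*, *USP39* and *USP48* (19.7%). Of these *USP6* had 17 to 22 reads in RIP and 5 to 9 in Input. *USP6* passed the filter on low counts through the RIP libraries, where it is high, so its enriched call is no support. With library size alone as the scale, which lowered the median of all genes to -0.26, the members split into 13 enriched and 36 depleted, beside 32.0% and 50.4% of all genes (82.4% called in all).

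The groups did not overlap for 48 members, beside 83.1% of all genes: in 17 every RIP library lay above every Input library (background 40.9% of genes) and in 31 every one lay below (42.2%). The plot of every library shows the RIP libraries close together for most members, with the widest scatter for *OTUD7A*, *USP51*, *USP6*, *USP18* and *USP27X*, which had few reads. The spans of 13 members overlap another protein-coding gene in the RefSeq table, namely *USP4*, *USP6*, *USP8*, *USP14*, *USP22*, *USP32*, *USP35*, *USP37*, *USP39*, *USP43*, *OTUB2*, *OTUD7B* and *UCHL5*, and their values are less certain because no source used here states whether reads were counted by strand. Levels below are CPM after scaling by the trimmed mean of M-values (TMM), and libraries are given in the order of replicates 1, 2 and 3.

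**Figure D1:**
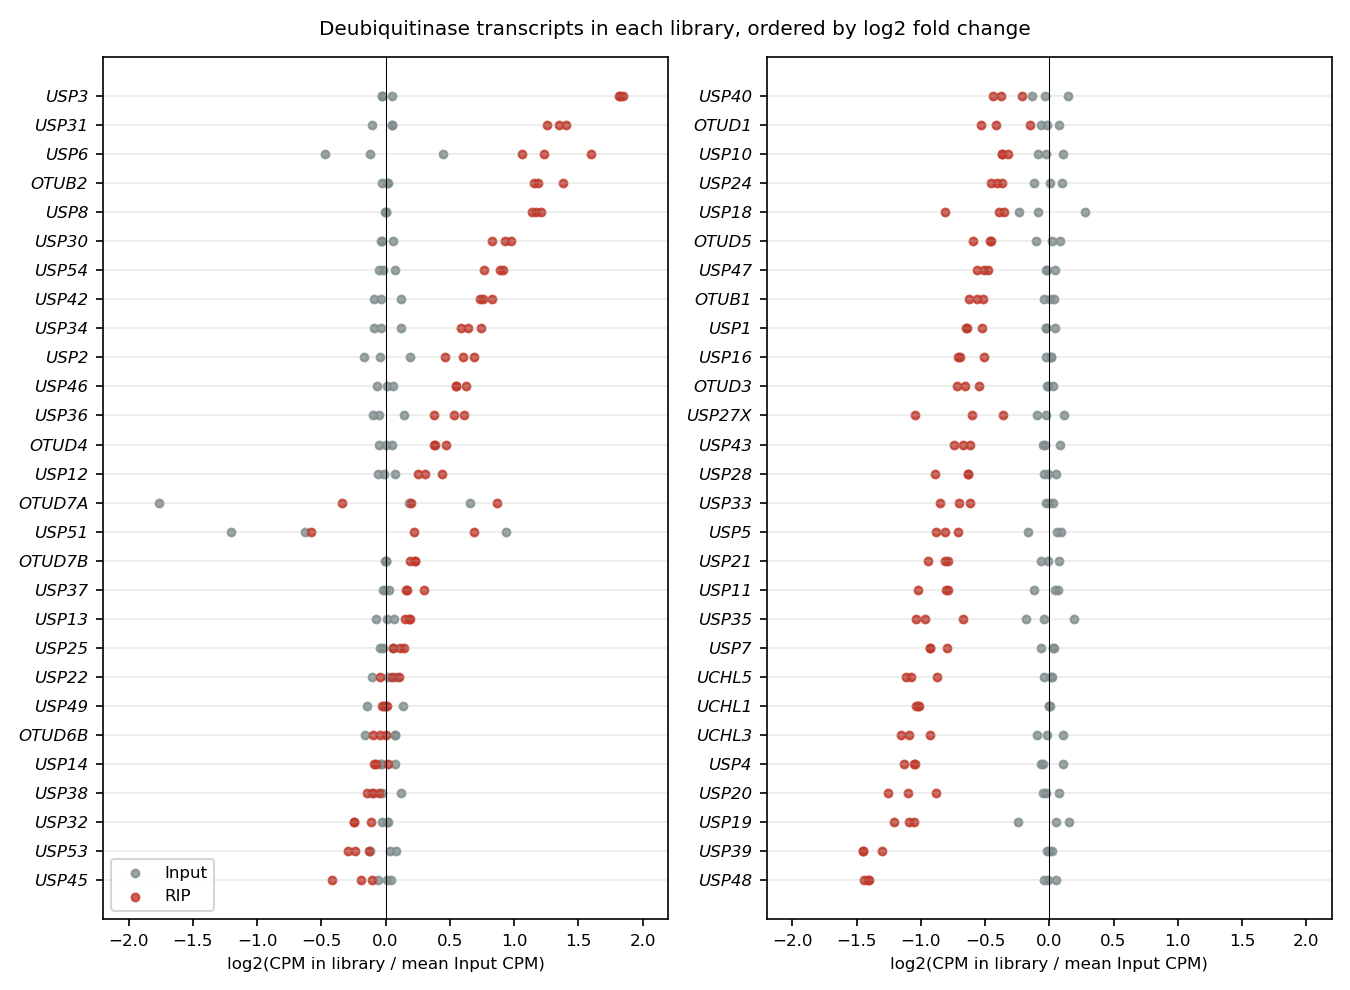
Each row is a deubiquitinase mRNA and each point a library, placed at the log2 ratio of its CPM to the mean of the 3 Input libraries, with RIP in red and Input in grey. Members are ordered by log2 fold change from *USP3*, at 1.83, down the left panel and then the right panel to *USP48*, at -1.41.

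Among the 7 tested members listed for histones H2A and H2B, *USP3* was the only one enriched. It had the highest fold of all members, and 3 of the 7 tested genes of this list were depleted while 3 were not called. Of all genes tested, 40.7% were enriched and 42.0% depleted. The list does not hold every gene with such a role. *USP48*, depleted, and *MYSM1*, enriched and not a member, also act on H2A and are described below. *USP3*, which removes ubiquitin from both histones (chromosome 15, 63504593 to 63594633 on GRCh38), stood at 196, 191 and 193 CPM in the RIP libraries and at 53.4, 53.4 and 56.4 in the inputs. The groups were far apart, and the mean was 3.56-fold higher in RIP (log2 fold change 1.83, SE 0.028, edgeR adjusted p = 4.88e-22). *USP22*, the catalytic subunit of the SAGA coactivator module (chromosome 17, 20999596 to 21043419), was measured at 249, 234 and 259 CPM in RIP and 224, 255 and 244 in Input. These groups overlapped and the gene was not called (log2 fold change 0.037, SE 0.069, edgeR adjusted p = 0.472), and the sign turned with upper-quartile scaling and without Input replicate 1, and in 4 settings it was called as depleted, namely library size alone, both FPKM fits and removal of the length trend. *USP27X*, which can take its place in such modules, had 45 to 96 reads per library and was depleted (log2 fold change -0.63, edgeR adjusted p = 0.00362). *USP51*, another alternative to *USP22*, had 5 to 25 reads and was not called. The H2A deubiquitinases *USP16* and *USP21* were 1.55-fold and 1.79-fold lower, at 21.5 ± 1.67 and 7.73 ± 0.459 CPM in RIP (mean ± SD, n = 3). *USP49*, which acts on H2B, had 3.01 ± 0.0419 CPM in RIP and 3.03 ± 0.290 in Input (edgeR adjusted p = 0.953), and was called as depleted after removal of the length trend (log2 fold change -0.52).

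Deubiquitinases of endosomes, mitochondria and the endoplasmic reticulum went in both directions, with 3 enriched and 5 depleted of 8. Of all genes 40.7% were enriched and 42.0% depleted. The depleted genes of this list include *USP20* and *USP33*, described below. *USP8*, which acts on receptors and sorting factors at endosomes (chromosome 15, 50424405 to 50514421), had 125, 128 and 122 CPM in RIP and 55.5, 55.4 and 55.2 in Input. Every RIP library was more than 2-fold above every Input library, for a 2.26-fold enrichment (log2 fold change 1.17, SE 0.022, edgeR adjusted p = 4.40e-18). *USP30*, which is anchored in the outer mitochondrial membrane and opposes Parkin-dependent mitophagy (chromosome 12, 109023089 to 109088023), had 14.1, 15.6 and 15.1 CPM in RIP and 7.78, 8.26 and 7.74 in Input. It was 1.88-fold enriched (log2 fold change 0.91, SE 0.052, edgeR adjusted p = 7.29e-10). In contrast *USP19*, which has a form anchored in the endoplasmic reticulum (chromosome 3, 49108050 to 49120823), had 9.50, 10.3 and 10.6 CPM in RIP and 18.6, 22.9 and 24.5 in Input, of which Input replicate 1 was the lowest. The groups still did not overlap, and its level was 2.17-fold lower in RIP (log2 fold change -1.12, SE 0.13, edgeR adjusted p = 3.56e-11). *USP35* (chromosome 11, 78188919 to 78237219) stood at 3.60, 4.42 and 3.43 CPM in RIP and 6.20, 8.06 and 6.85 in Input, 1.83-fold lower (edgeR adjusted p = 1.63e-06). *USP32*, of endosomes and the Golgi, was 1.15-fold lower, at 58.7 ± 3.06 against 67.5 ± 1.21 CPM. *USP6*, a gene derived in part from *USP32*, was called as enriched (edgeR adjusted p = 0.00700) on only 17 to 22 reads in RIP and 5 to 9 in Input, and reads of these near copies may be split between them. *USP6* is among the 3 enriched genes of this list, but passed the filter on low counts through the RIP libraries. Its call was lost in both FPKM fits and after removal of the length trend.

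The VHL-interacting deubiquitinases *USP20* and *USP33* were both depleted. *USP20* (chromosome 9, 129835458 to 129881828) had 4.52, 4.07 and 5.25 CPM in RIP and 9.37, 9.54 and 10.2 in Input, 2.11-fold lower in RIP (log2 fold change -1.08, SE 0.11, edgeR adjusted p = 3.16e-09). *USP33* had 37.2 ± 3.06 CPM in RIP and 61.3 ± 1.23 in Input, 1.64-fold lower. VHL is the tumour suppressor that targets hypoxia-inducible factors (HIF) for degradation and is commonly lost in clear cell carcinoma. Of the 6 members linked to HIF or VHL, 3 were enriched and 3 depleted, beside 40.7% and 42.0% of all genes. Their median log2 fold change was -0.25. *UCHL1*, described below, was the third depleted gene. Besides *USP8* the enriched genes were *OTUD7B* and *USP37*, both at only 1.16-fold. When scaled by library size alone both turned to negative values (-0.024 and -0.028, not called) and were called as depleted after removal of the length trend.

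Members with a published link to TGF-beta receptors or SMAD proteins were depleted for 6 of 7 genes, with *USP2* enriched, where 55.4% of all members and 42.0% of all genes were depleted. Their median log2 fold change was -0.57, beside -0.28 over the members and -0.024 over all genes. With the length trend removed, 5 were depleted and the median was -0.26, beside -0.27 over the members. *USP4*, which deubiquitinates the type I TGF-beta receptor (chromosome 3, 49277144 to 49340053), had 11.1, 11.8 and 11.7 CPM in RIP and 23.2, 26.3 and 23.5 in Input. Every Input library lay above every RIP library, and the mean was 2.11-fold lower in RIP (log2 fold change -1.08, SE 0.063, edgeR adjusted p = 1.82e-12). *USP11*, its paralog with an action on the same receptor (chromosome X, 47233009 to 47248328), had 19.3, 16.4 and 19.1 CPM in RIP and 30.7, 34.3 and 34.9 in Input. The groups were separate and the level was 1.83-fold lower in RIP (edgeR adjusted p = 4.74e-11). *UCHL5*, which binds SMAD7 as well as the proteasome and the INO80 remodeler (chromosome 1, 193012254 to 193060076), had 21.9, 25.9 and 22.6 CPM in RIP and 48.0, 46.2 and 48.2 in Input, 2.02-fold lower (log2 fold change -1.01, SE 0.076, edgeR adjusted p = 1.37e-13).

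*OTUB1*, which protects active SMAD2 and SMAD3 and inhibits the E2 enzyme UBC13 (chromosome 11, 63986438 to 63998412), had 58.6, 54.0 and 56.4 CPM in RIP and 83.7, 81.3 and 85.5 in Input. Its level was 1.48-fold lower in RIP (log2 fold change -0.57, SE 0.040, edgeR adjusted p = 4.93e-11), and the log2 value shrank to -0.13 after removal of the length trend, still called. *USP10*, which acts on p53 and SMAD4 and binds the stress granule protein G3BP1 (chromosome 16, 84700000 to 84779922), had 99.3, 96.1 and 96.2 CPM in RIP and 117, 122 and 134 in Input. The difference was modest, 1.28-fold lower, but the groups did not overlap (edgeR adjusted p = 2.50e-07). *OTUD1*, a deubiquitinase of SMAD7 (chromosome 10, 23439075 to 23442377), had only 5.01, 6.53 and 5.41 CPM in RIP and 7.61, 7.15 and 6.92 in Input. It was 1.27-fold lower (edgeR adjusted p = 0.00904), a call that was lost without RIP replicate 1 (log2 fold change -0.26) and after removal of the length trend (-0.21). *USP2*, a deubiquitinase of cyclin D1 and of a TGF-beta receptor (chromosome 11, 119355215 to 119381690), had 31.1, 28.2 and 33.1 CPM in RIP and 19.9, 18.3 and 23.4 in Input. Input replicate 3 was the highest input but lay below every RIP library, and the level was 1.499-fold higher in RIP (log2 fold change 0.58, SE 0.12, edgeR adjusted p = 4.09e-07). *USP26*, also listed for SMAD7, had no read in any library.

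The 3 UCH genes were all depleted, 2.02-fold to 2.07-fold, where 42.0% of all genes were depleted. *UCHL1*, an enzyme best known for its abundance in neurons (chromosome 4, 41256928 to 41268455), had 120.1, 118 and 119.5 CPM in RIP and 243, 243 and 242 in Input. Replicates differed very little, and the mean was 2.04-fold lower in RIP (log2 fold change -1.03, SE 0.0076, edgeR adjusted p = 4.07e-18). *UCHL3*, which also cleaves the ubiquitin-like protein NEDD8 (chromosome 13, 75549502 to 75606020), had 5.12, 6.01 and 5.35 CPM in RIP and 10.7, 12.3 and 11.3 in Input, 2.07-fold lower (log2 fold change -1.05, SE 0.090, edgeR adjusted p = 1.04e-09). *UCHL1* and *UCHL3* are the shortest members, at 1167 nt and 931 nt, and after removal of the length trend both were called as enriched, at log2 fold changes of 0.13 and 0.28. *UCHL5*, at 5899 nt, stayed depleted there (-1.31). *USP14*, the other deubiquitinase of the proteasome cap, differed little between the groups, with 124 ± 4.92 CPM in RIP and 129 ± 5.61 in Input (edgeR adjusted p = 0.322). It was called as depleted with upper-quartile scaling, library size alone, both FPKM fits and removal of the length trend.

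Of the 8 members listed for genome maintenance 7 were depleted, beside 55.4% of all members and 42.0% of all genes. The list does not hold every member with such a role. *OTUD4*, linked to repair and described below, was outside it and was called as enriched. The median of the list was -0.58 on the log2 scale, and that of all genes -0.024. *USP48*, a nuclear enzyme that acts on histone H2A at sites ubiquitinated by BRCA1 (chromosome 1, 21678298 to 21783149), had 22.1, 22.3 and 21.7 CPM in RIP and 60.8, 57.0 and 58.5 in Input. It was the most depleted member, 2.67-fold lower in RIP (log2 fold change -1.41, SE 0.030, edgeR adjusted p = 9.02e-18). *USP7*, which stabilises MDM2 and p53 (chromosome 16, 8892097 to 8963906), had 51.7, 47.3 and 47.2 CPM in RIP and 86.1, 92.0 and 91.8 in Input, 1.85-fold lower (log2 fold change -0.88, SE 0.054, edgeR adjusted p = 1.89e-14). *USP1*, which acts on FANCD2 and PCNA, had 53.1 ± 2.59 CPM in RIP and 80.6 ± 2.29 in Input, 1.52-fold lower. *USP28*, a regulator of MYC and 53BP1 signalling, was 1.64-fold lower, and *USP47*, which acts on DNA polymerase beta, 1.43-fold lower. *USP45*, which acts on the repair nuclease subunit ERCC1, was only 1.17-fold lower (edgeR adjusted p = 0.0187). That call was lost in DESeq2 and without RIP replicate 3 or Input replicate 1, where the log2 fold changes were -0.14 and -0.21. *USP37*, which acts on cyclin A, was the only one enriched, with the limits given above.

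Both members listed for a role in splicing were depleted, where 42.0% of all genes were depleted. *USP39*, a component of the tri-snRNP that lacks deubiquitinase activity (chromosome 2, 85602861 to 85649283), had 23.6, 23.6 and 26.1 CPM in RIP and 64.3, 65.6 and 63.7 in Input. It was 2.64-fold lower in RIP (log2 fold change -1.40, SE 0.050, edgeR adjusted p = 1.23e-17). The other was *USP4*, whose targeting factor in the spliceosome, *SART3*, was not a member and was 2.71-fold lower (log2 fold change -1.44, SE 0.021, edgeR adjusted p = 3.25e-17).

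The members that are activated by the WD40 protein WDR48 were divided. *USP46* (chromosome 4, 52590960 to 52659301) had 34.5, 32.7 and 32.7 CPM in RIP and 21.4, 22.5 and 23.3 in Input, 1.49-fold higher in RIP (log2 fold change 0.57, SE 0.044, edgeR adjusted p = 7.08e-09), a call lost after removal of the length trend (0.13). Its paralog *USP12* had 58.0 ± 4.01 and 46.0 ± 2.05 CPM, 1.26-fold higher, but in the fit scaled by library size alone (0.095) and in both FPKM fits this was no longer called. *USP1*, the third partner, was depleted. *WDR48* itself was 1.43-fold higher (log2 fold change 0.51, SE 0.096, edgeR adjusted p = 1.42e-07), and *WDR20*, a second cofactor of *USP12* and *USP46*, 1.17-fold lower.

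Of the 9 OTU genes, 3 were enriched, 4 depleted and 2 not called. The shares of 33.3% and 44.4% were near the 40.7% and 42.0% of all genes. With the length trend removed 1 was enriched, 4 were depleted and 4 not called. *OTUB2*, the paralog of *OTUB1* (chromosome 14, 94026340 to 94048930), had 27.0, 23.7 and 23.2 CPM in RIP and 10.5, 10.5 and 10.2 in Input. All RIP libraries were more than 2-fold above all inputs, and the mean was 2.37-fold higher (log2 fold change 1.24, SE 0.070, edgeR adjusted p = 2.30e-13). Its overlapping neighbour is *DDX24*. *OTUD4*, linked to the repair of alkylation damage, was 1.33-fold higher at 82.0 ± 3.00 CPM, which was no longer called with the length trend removed (-0.027). *OTUD3* was 1.55-fold lower, and *OTUD5*, a regulator of TRAF3, 1.42-fold lower. *OTUD6B* had 23.6 ± 0.825 CPM in RIP and 24.3 ± 2.17 in Input and was not called (log2 fold change -0.044, SE 0.082), but was depleted with library size alone (-0.28) and in both FPKM fits. *OTUD7A* had 5 to 34 reads per library and was not called.

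Several of the enriched USP genes belong to none of these roles. *USP31* (chromosome 16, 23061406 to 23149452) had 163, 174 and 180.3 CPM in RIP and 63.3, 70.5 and 70.7 in Input. The groups were widely separate, at 2.53-fold higher in RIP (log2 fold change 1.34, SE 0.068, edgeR adjusted p = 3.08e-18). *USP34*, which acts on axin in Wnt signalling (chromosome 2, 61187463 to 61471087), had 207, 231 and 216 CPM in RIP and 129, 134.6 and 150.1 in Input, 1.58-fold higher (edgeR adjusted p = 1.95e-11). *USP42* (chromosome 7, 6081241 to 6161564) had 46.5, 47.2 and 49.6 CPM in RIP and 30.3, 27.2 and 26.3 in Input, 1.71-fold higher (edgeR adjusted p = 1.17e-11). *USP54* (chromosome 10, 73497538 to 73625981) had 43.9, 47.9 and 48.8 CPM in RIP and 24.97, 27.2 and 25.5 in Input, 1.81-fold higher (edgeR adjusted p = 1.56e-12). For each of these 4 every RIP library lay above every Input library. *USP36*, a nucleolar enzyme that stabilises MYC, was 1.42-fold higher, but not called after removal of the length trend (0.10).

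The remaining USP genes changed less or were depleted. *USP5*, which disassembles free ubiquitin chains, was 1.74-fold lower, at 33.2 ± 2.00 CPM in RIP and 57.8 ± 5.54 in Input. *USP24* was 1.33-fold, *USP43* 1.60-fold and *USP40* 1.26-fold lower. *USP18*, which removes the interferon-induced modifier ISG15, was 1.41-fold lower on 66 to 114 reads per library, and this call was lost without RIP replicate 1 or Input replicate 1 (log2 fold changes -0.36 and -0.34), and its sign turned after removal of the length trend (0.20, not called). *USP53* was 1.16-fold lower (edgeR adjusted p = 0.0237), a call lost in DESeq2 and without RIP replicate 1 (-0.18), RIP replicate 3 (-0.20), Input replicate 1 (-0.18) or Input replicate 3 (-0.20). *USP13* and *USP25* were only 1.13-fold and 1.08-fold higher. The call of *USP13* was lost without Input replicate 1 (0.13) or with upper-quartile scaling, and that of *USP25* without RIP replicate 2 or 3 or Input replicate 2 or 3 (0.083 to 0.10), with upper-quartile scaling or the 5 CPM filter, and both signs turned under scaling by library size alone (-0.069, not called, and -0.14, called as depleted). *USP38* was not called (log2 fold change -0.095, SE 0.069), but was called as depleted with upper-quartile scaling, library size alone, both FPKM fits and removal of the length trend.

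Levels were compared between genes per length, as the FPKM deposited by the authors (read counts scaled by gene length and library total). In Input the median member stood at 5.90 FPKM, beside 5.94 for all genes tested. *UCHL1* was far above the others at 226 ± 1.57 FPKM (mean ± SD, n = 3) and made up 30.0% to 31.0% of the summed FPKM of the members in Input, but 18.9% to 19.3% in RIP. Next came *USP22* at 49.2 ± 3.52, *USP10* at 39.1 ± 2.86, *OTUB1* at 35.9 ± 0.837 and *USP39* at 28.02 ± 0.569 FPKM. At the low end were *USP49*, *USP51*, *OTUD7A* and *USP6*, all under 1 FPKM, while 19 members had at least 10. Of the 55 neighbours in this order, 35 overlapped in the range of their 3 libraries. *UCHL1*, *USP22* and *USP10* did not overlap one another, but *USP10*, at 36.5 to 42.2 FPKM, overlapped *OTUB1*, at 35.2 to 36.8. In RIP the order shifted: *USP3* moved from place 19 to 3, *USP31* from 26 to 9 and *USP8* from 41 to 25. *USP48* moved down from place 20 to 39.

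**Figure D2:**
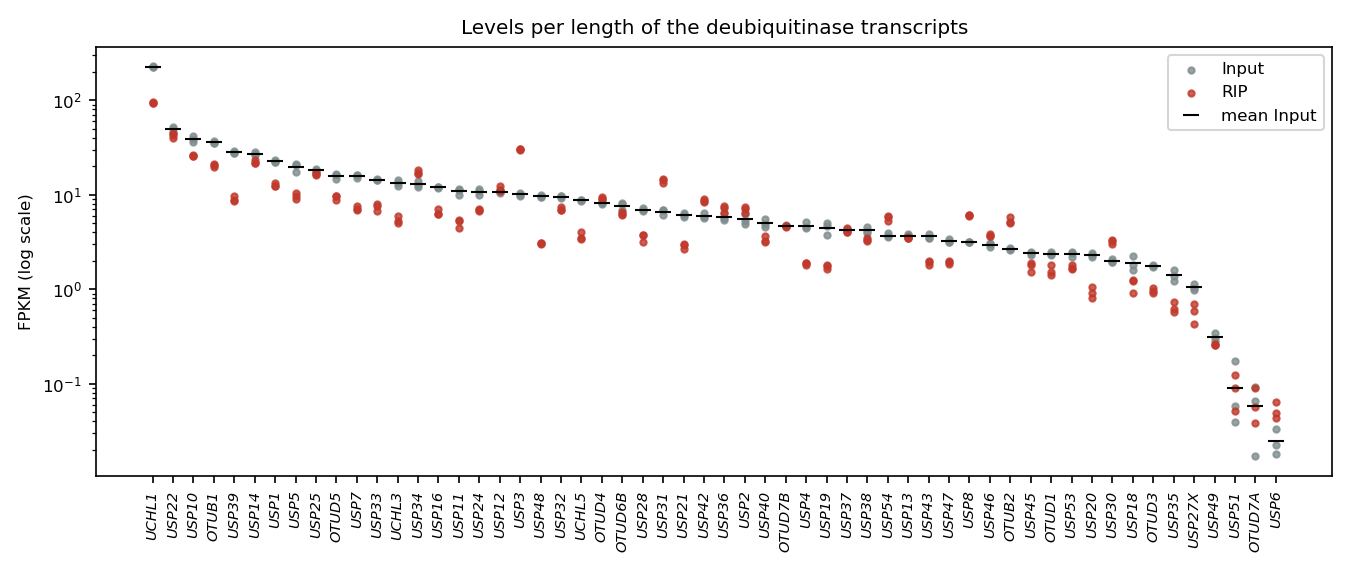
FPKM of each deubiquitinase on a log axis, ordered by the mean of the Input libraries (black dash), with a grey point for each Input and a red point for each RIP library. *UCHL1* stands highest in both groups, *USP3* and *USP8* lie above their inputs, and *USP39*, *USP48* and *UCHL3* lie below.

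Close relatives within the family differed in several cases. Of 17 paralog pairs listed, 16 could be compared, the exception being *USP44* and *USP49*. The log2 ratio of the pair within each library does not depend on the scaling, and its RIP and Input values did not overlap in 9 of 16 pairs. The share over other pairs of genes was not computed, so this count does not set paralogs apart. Single genes did not overlap between the groups for 83.1% of all tested. With 3 libraries against 3 the exact two-sided permutation test cannot go below p = 0.1, which these 9 reached (0.178 after adjustment over 16 pairs), so none passes 0.05. The largest difference in log2 fold change was that of *USP31* over *USP43*, 2.01 (SE 0.087), followed by *OTUB1* against *OTUB2*, -1.80 (SE 0.058), and *USP53* against *USP54*, -1.07 (SE 0.11). *USP5* stood -0.97 (SE 0.079) from *USP13*, and *USP25* 0.82 (SE 0.081) from *USP28*. In these 5 pairs the edgeR calls went in opposite directions. With the length trend removed, *USP5* and *USP13* differed by -0.34, and since *USP13* and *USP25* were then called as depleted, 2 of these pairs no longer had opposite calls.

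In other pairs the RIP and Input ratios overlapped. *UCHL1* and *UCHL3* differed by 0.024 (SE 0.096), *USP4* and *USP11* by -0.20 (SE 0.11), and *USP12* and *USP46* by -0.24 (SE 0.11) on the log2 scale, with exact p of 0.8, 0.2 and 0.2. Such a p does not show that the pairs behave alike, and pairs with *USP51* or *OTUD7A* have SEs of 0.687 and 0.705. After removal of the length trend 3 differences turned sign, that of *USP16* and *USP45* from -0.40 to 0.21, that of *USP12* and *USP46* to 0.053 and that of *UCHL1* and *UCHL3* to -0.15. The difference of *USP4* and *USP11* widened there to -0.60, with RIP and Input no longer overlapping.

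**Figure D3:**
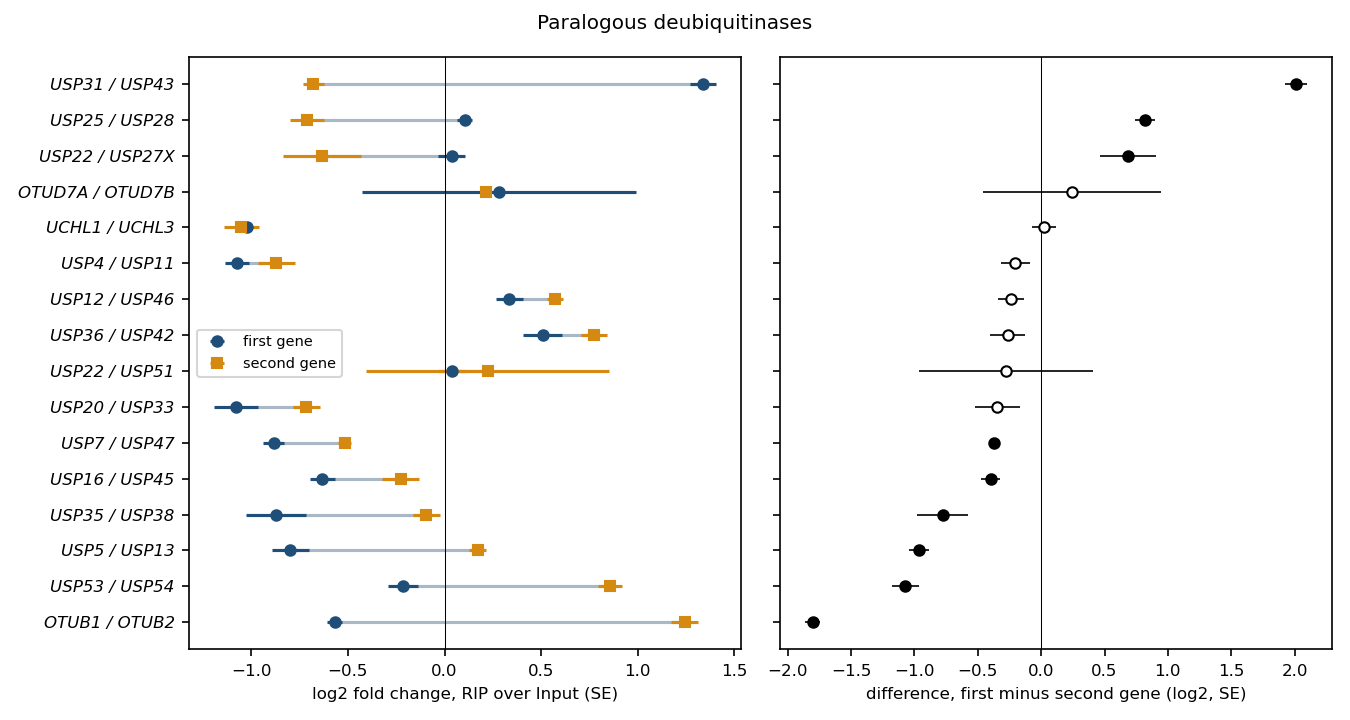
Left, log2 fold change of RIP over Input with its SE for the first (circle) and second gene (square) of each paralog pair; right, their difference with its SE, filled where the within-library ratios of RIP and Input do not overlap. *USP31* over *USP43* and *OTUB1* against *OTUB2* lie at the ends, at 2.01 and -1.80.

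Fold changes rose with gene length, among the members as among all genes. Across the 56 members Spearman's rho between log2 fold change and the gene length behind the FPKM was 0.48, and across all 12856 genes 0.44. These are correlations across genes of the same 6 libraries, given as a description. The members are long, with a median of 5369 nt beside 3981 nt over all genes. Of the 28 members at or above their own median length 13 were enriched and 12 depleted, and of the 28 below it 5 and 19. Of all genes of at least that length 61.1% were enriched and 22.6% depleted, and of all shorter genes 31.1% and 51.1%. With the length trend removed, 12 members were enriched and 35 depleted, beside 40.2% and 40.0% of all genes (80.2% called in all). The median of the members was then -0.27, close to its value without the correction.

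The correction left 10 of the 18 enriched members enriched and 27 of the 31 depleted members depleted. *USP3* stayed highest at a log2 fold change of 1.53, and *OTUB2* (1.24 to 1.16), *USP30* (0.91 to 0.81) and *USP2* (0.58 to 0.53) moved by 0.1 or less. *USP31*, at 11232 nt, went from 1.34 to 0.83, *USP8*, at 19028 nt, from 1.17 to 0.62, *USP54* from 0.86 to 0.45 and *USP34*, at 11675 nt, from 0.66 to 0.15. The 4 members that went from enriched to depleted were *USP13*, *USP25*, *USP37* and *OTUD7B*. Among the depleted genes the correction deepened the fold of long ones, as for *USP24* (-0.41 to -0.92), *USP47* (-0.52 to -1.02) and *USP48* (-1.41 to -1.77). It lessened that of *USP39*, at 2503 nt (-1.40 to -0.96).

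**Figure D4:**
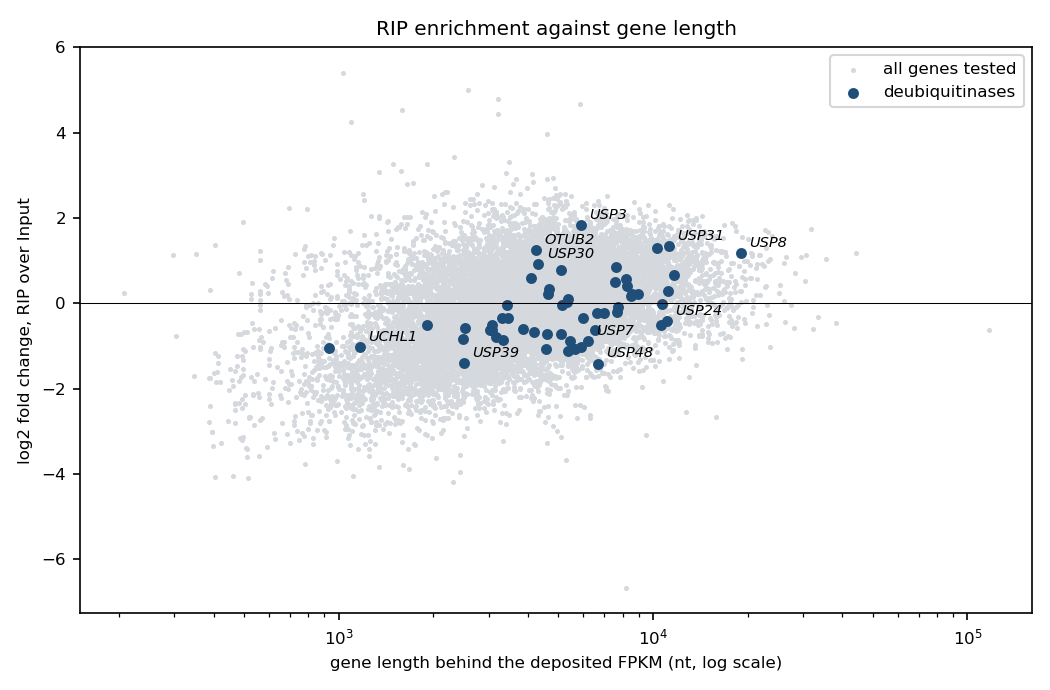
Log2 fold change of RIP over Input against gene length on a log axis, for all 12856 genes tested (grey) and the 56 deubiquitinases (blue). The members spread along the rise with length, from *UCHL1* near -1.03 to *USP8* at 1.17.

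**Figure D5:**
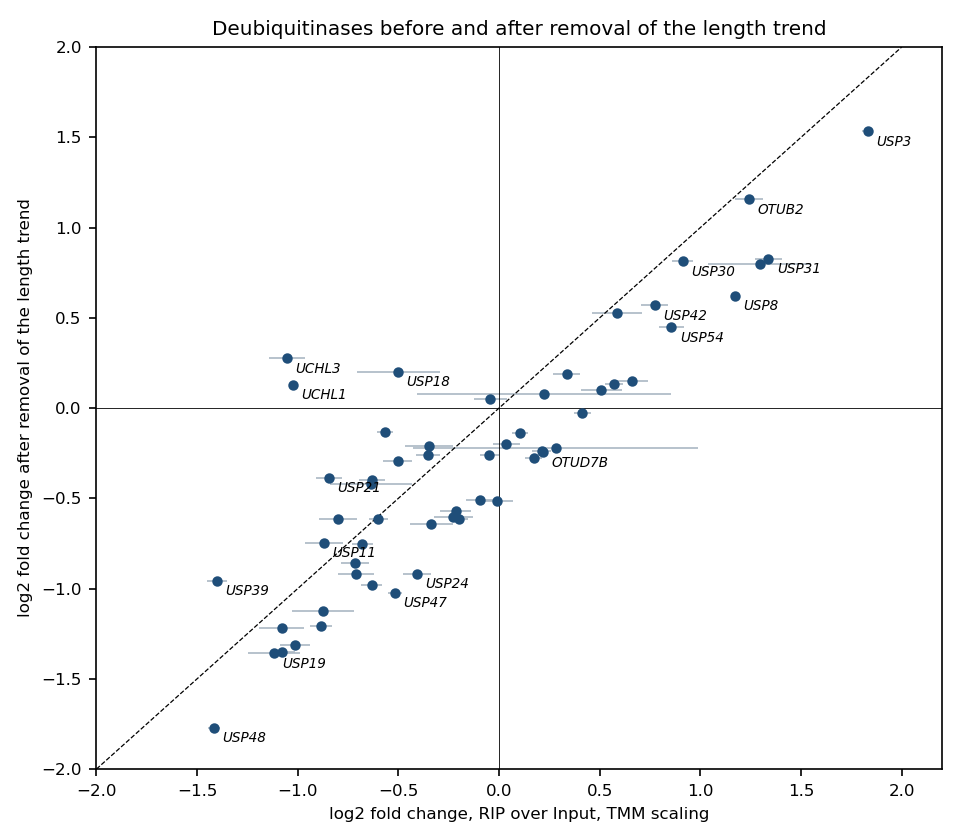
Log2 fold change with TMM scaling (horizontal, with SE) against the value after removal of the length trend (vertical) for the 56 deubiquitinases, with the dashed line of equal values. Long members lie below the line, and *UCHL1*, *UCHL3*, *USP18* and, narrowly, *OTUD6B* cross zero from below.

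Deubiquitinases outside the rule, from a fixed list of 25, also went in both directions, with 10 enriched and 13 depleted of 24 tested. These shares were 41.7% and 54.2%, beside 40.7% and 42.0% of all genes. Their median log2 fold change was -0.26, or -0.081 with the length trend removed. The OTU enzymes *VCPIP1*, which works with the VCP segregase, and *OTULIN*, which cleaves linear ubiquitin chains, were 2.34-fold and 1.74-fold higher, whereas *YOD1* was 2.098-fold lower. The metalloprotease *COPS5*, of the COP9 signalosome, was 2.42-fold lower, and the metalloprotease *MYSM1*, which acts on H2A, 1.72-fold higher. *EIF3H*, also on the list, was 2.47-fold lower. Of 11 listed cofactors, 5 were enriched and 6 depleted, or 45.5% and 54.5%, beside the same shares of all genes as above. The SAGA subunit *ATXN7* was 2.68-fold higher (log2 fold change 1.42, SE 0.048, edgeR adjusted p = 4.52e-19), while *ATXN7L3* and *ENY2* of the same module were 1.33-fold and 1.252-fold lower. With the length trend removed *ATXN7* stood at 0.99 and *ATXN7L3* at -0.50, both still called, and *ENY2* was no longer called (-0.098). *ADRM1*, the proteasomal receptor that holds UCHL5, was 3.26-fold lower (log2 fold change -1.70, SE 0.038, edgeR adjusted p = 6.50e-20). *G3BP1*, which binds USP10, was 1.76-fold higher, from 317 ± 6.39 to 558 ± 17.6 CPM (edgeR adjusted p = 4.35e-16).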

How the data were processed

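The 6 libraries were grouped and numbered by their titles. Per the submitters' processing notes, fastp 0.23.2, STAR 2.7.10a and featureCounts were used with the build hg38. No source used here states the annotation, the strand setting or how reads with several alignments were treated. The authors deposited raw read counts per gene symbol and FPKM values for the same genes. Counts divided by FPKM and column total gave 1 whole length per gene, to within 2.33e-10 nt, used as gene length. The length of the transcripts present in these cells was not measured and may differ from it, which limits the values with the length trend removed.

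After filterByExpr and TMM scaling, the groups were compared by edgeR's quasi-likelihood F-test with a robust fit and no covariate (edgeR 4.0.16, R 4.3.3). A gene was called at 0.05 after Benjamini-Hochberg adjustment over 12856 genes. SEs come from log2 CPM with a prior count of 2. The length trend was a robust loess fit (span 0.3) on log2 gene length of what a library deviated from the gene's mean log2 CPM, and entered the model as offset. Other settings used limma 3.58.1 and DESeq2 1.42.0. Coordinates are spans of the RefSeq table (GRCh38.p14), matched by symbol for all 56 members.

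Values in each library are given for the 10 most enriched and 10 most depleted called members whose mean reached 5 CPM, the 5 of highest Input FPKM and those linked to TGF-beta. The members and lists were chosen with earlier results of these data known. No replicates agreed within sampling noise (chi-square per gene 3.42 to 8.35).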

Additional observations from a re-analysis of the deposited data

How the results depend on the processing

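Against a 1.5-fold change 9 members were enriched and 15 depleted, and 2973 and 3358 of all genes. In the other settings the 4 counts stayed within 1.5 times. Leaving out each library gave 17 to 18 enriched and 28 to 31 depleted members, 5103 to 5170 and 5271 to 5348 genes, medians of -0.32 to -0.24 and 9 to 12 separate paralog pairs. The median of the members fell to -0.52 with library size alone and -0.51 on log2(FPKM + 0.1), where that of all genes was -0.26 and -0.23. The median of all genes was -0.11 with upper-quartile scaling and -0.13 on log2(FPKM + 1), and that of the members -0.37 and -0.39. The 5 CPM filter left 50 members, with 16 enriched and 29 depleted. Apart from that filter and the 1.5-fold test, 9 members were enriched and 25 depleted in all 16 settings. With the replicate block 17 members were enriched and 31 depleted, with *USP25* lost (0.10) and no other member's call changed; 12 of 16 paralog differences had 1 sign in all 3 numbers. Deviations of same-numbered RIP and Input libraries correlated at -0.046 to 0.036, and not every library correlated best with its own number, so the numbers were not used as pairs.

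Signs turned as follows, and the cause was not tested. With library size alone, log2(FPKM + 1) and log2(FPKM + 0.1) respectively, *OTUD7B* stood at -0.024, -0.020 and -0.023, *USP37* at -0.028, -0.025 and -0.030, *USP13* at -0.069, -0.053 and -0.066, *USP22* at -0.20, -0.20 and -0.20, and *USP25* at -0.14, -0.13 and -0.14. *USP51* stood at -0.015 and -0.0017 in the first pair of these. *USP22* was at -0.050 with upper-quartile scaling, and *USP49* at 0.014 with RLE and 0.014 in DESeq2. With the length trend removed the values were -0.25 for *OTUD7B*, -0.24 for *USP37*, -0.28 for *USP13*, -0.14 for *USP25*, -0.20 for *USP22*, -0.027 for *OTUD4*, -0.22 for *OTUD7A*, 0.051 for *OTUD6B*, 0.20 for *USP18*, 0.13 for *UCHL1* and 0.28 for *UCHL3*, and 0.21 for *USP16* minus *USP45*, 0.053 for *USP12* minus *USP46* and -0.15 for *UCHL1* minus *UCHL3*. Leaving out single libraries gave -0.15 to 1.09 for *USP51*, -0.15 to 0.78 for *OTUD7A*, -0.078 to 0.062 for *USP49* and -0.015 to 0.080 for *USP22*. The paralog differences that turned sign without 1 library were *USP22* minus *USP51*, at -0.86 to 0.13, *OTUD7A* minus *OTUD7B*, at -0.37 to 0.66, and *UCHL1* minus *UCHL3*, at -0.030 to 0.097. Depth limits *USP6*, *USP51* and *OTUD7A*, with at most 34 reads in a library.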
